A study of Mus musculus with 48 samples.

Results

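Described here are 10 genes for scaffold proteins of the excitatory postsynapse, from 3 families: Dlg1, Dlg2, Dlg3 and Dlg4, then Shank1, Shank2 and Shank3, then Homer1, Homer2 and Homer3. They were chosen by gene symbol, with earlier results of these data known. They are 10 of the 48709 Ensembl gene IDs in the neuron RNA tables and 10 of the 47729 in the whole CA tables. All mice were C57BL/6J adults of 4 to 6 months, either with a conditional knockout (cKO) of Setd1b or labelled control. Setd1b encodes an enzyme that methylates lysine 4 of histone H3 (H3K4). RNA was sequenced from neurons of the hippocampal CA region (3 libraries labelled cKO and 3 labelled control) and from whole CA tissue (6 and 6). In sorted neuronal nuclei, 4 histone marks were mapped by ChIP-seq. They were H3K4me3 and H3K4me1 (4 libraries of each genotype), H3K27ac (4 labelled cKO and 3 labelled control) and H3K9ac (3 labelled cKO and 4 labelled control). The driver of the knockout, the cells in which it acts and the way the neuron RNA was obtained are not given in the sources used here. The labels do not say whether libraries came from separate animals, so p-values measure the spread between these libraries only.

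Scaffold proteins hold the receptors of an excitatory synapse in place and join them to the enzymes and the actin skeleton beneath. Dlg proteins (Dlg4 is PSD-95, Dlg2 PSD-93, Dlg1 SAP97 and Dlg3 SAP102) bind glutamate receptors and potassium channels through their PDZ domains. Dlgap adaptors link them to the Shank proteins, the deeper layer of the density. Homer proteins bind Shank, group I metabotropic glutamate receptors and IP3 receptors, and a short Homer1 form made after neuronal activity loosens those contacts. The counts used here are per gene, so the short and long Homer1 forms were not separated.

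The neuron libraries held 55735204 to 69071100 counted reads and the whole CA libraries 14878128 to 20100286. As a check of the labels, Setd1b itself was examined: its counts were not lower under the cKO label in neuron RNA (log2 fold change 0.25, SE 0.13, edgeR adjusted p 0.361) and were higher in whole CA (0.59, SE 0.11, edgeR adjusted p 0.00415). Whole-gene counts do not measure the loss of single exons, but since they go against the label, groups are named below as labelled. Of the marker lists, the 5 pyramidal neuron markers summed to 2460 to 3343 CPM (read counts scaled to a common library size) in neuron RNA. Glial markers were low there but not at 0: the 5 astrocyte markers summed to 25.4 to 32.1 CPM against 1342 to 1727 CPM in whole CA, and the 5 markers of the oligodendrocyte lineage to 113 to 134 CPM against 3210 to 4838 CPM. The 5 pyramidal markers were also lower in neuron RNA than in whole CA, where they summed to 6318 to 7743 CPM. Between genotypes, the 4 markers of CA2 and CA3 summed to 315 to 346 CPM in whole CA libraries labelled cKO and to 414 to 464 CPM in those labelled control. The 4 dentate granule cell markers summed to 112 to 161 CPM and 152 to 196 CPM in the same order, and to 174 to 209.9 CPM and 233 to 250.2 CPM in neuron RNA. In neuron RNA the 4 CA1 markers summed to 669.8 to 743 CPM under the cKO label and 790.2 to 899 CPM under the control label, and the 4 CA2 and CA3 markers to 254 to 273 CPM and 297 to 330.0 CPM. In whole CA the 5 microglia markers summed to 233 to 257 CPM and 262 to 322 CPM in the same order. Of these genotype ranges, those of the dentate markers in whole CA overlapped and the others did not. The CA1 markers in whole CA overlapped, at 1039 to 1169 CPM under the cKO label and 1031 to 1127 CPM under the control label. So did the microglia markers in neuron RNA. The pyramidal, interneuron, astrocyte, oligodendrocyte lineage, and endothelial and mural sums overlapped between genotypes in both materials. The part of such shifts in the results below was not tested.

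The start sites at which the histone marks were read are shown by the 4 sequences to which the results below return. Each runs from 250 bases before to 50 bases after a RefSeq start site (build GRCm38.p6, plus strand, 5′ to 3′). RefSeq start sites were matched for 8 of the 10 genes, 18 sites in all. Shank1 and Shank2 are named only. Capitals mark the core of the cAMP response element (CRE), TGACGT or its reverse complement ACGTCA. The first start of Homer1 (chr13:93303507-93303806) and its second (chr13:93307784-93308083), which lies 4277 bp into the gene, show a pair of starts that differed in H3K4me3. The fourth start of Dlg1 (chr16:31754100-31754399), 90907 bp into the gene, was the site with the smallest adjusted p among the scaffold genes. Homer3 (chr8:70282749-70283048) was the scaffold gene called in RNA.
Homer1 first start: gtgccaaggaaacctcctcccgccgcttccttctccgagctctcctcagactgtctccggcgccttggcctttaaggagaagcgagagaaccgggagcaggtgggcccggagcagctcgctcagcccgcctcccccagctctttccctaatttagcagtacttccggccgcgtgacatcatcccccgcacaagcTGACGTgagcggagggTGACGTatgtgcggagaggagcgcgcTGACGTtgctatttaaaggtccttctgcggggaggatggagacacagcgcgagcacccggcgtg
Homer1 second start: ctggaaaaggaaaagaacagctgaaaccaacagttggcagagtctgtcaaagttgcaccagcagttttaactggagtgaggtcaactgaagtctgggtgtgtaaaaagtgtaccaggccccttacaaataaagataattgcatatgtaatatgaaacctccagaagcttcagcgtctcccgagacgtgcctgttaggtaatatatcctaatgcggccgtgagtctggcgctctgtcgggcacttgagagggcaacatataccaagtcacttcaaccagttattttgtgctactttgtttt
Dlg1 start 4: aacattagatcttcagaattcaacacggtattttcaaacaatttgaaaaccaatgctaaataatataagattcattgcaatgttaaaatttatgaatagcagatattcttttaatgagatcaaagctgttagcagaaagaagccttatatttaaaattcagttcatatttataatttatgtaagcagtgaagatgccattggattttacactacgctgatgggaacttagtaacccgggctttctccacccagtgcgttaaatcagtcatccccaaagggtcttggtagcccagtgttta
Homer3 start: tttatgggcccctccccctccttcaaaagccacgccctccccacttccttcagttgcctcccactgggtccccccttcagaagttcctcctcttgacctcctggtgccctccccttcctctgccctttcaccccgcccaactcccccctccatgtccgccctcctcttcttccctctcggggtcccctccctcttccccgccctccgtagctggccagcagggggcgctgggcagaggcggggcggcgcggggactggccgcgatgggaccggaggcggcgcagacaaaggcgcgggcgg
The first Homer1 start held the CRE core 3 times, all on the printed strand, and no other scaffold start held it. Of all 32851 RefSeq promoters of the same length, 7.51% held it on either strand. The first Homer1 start held 26 CpG dinucleotides and the second 7, which is the median of all promoters (quartiles 3 and 20). The fourth Dlg1 start held 4 and the Homer3 start 19. The GC box core GGGCGG (reverse complement CCGCCC) was present at 7 of the 18 scaffold starts and in 35.7% of all promoters. CACGTG, an E-box, was at 2 of 18 starts (7.15% of all) and CCAAT (reverse complement ATTGG) at 5 of 18 (37.4% of all). Overlaps between motifs were not removed, and a match is a string of letters, not a bound site.

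In RNA, Homer3 was the scaffold gene that differed between the genotypes, and none of the other 9 was called. Homer3 fell in whole CA libraries labelled cKO and had a value of the same size in neuron RNA, short of the threshold. Calls rest on edgeR's quasi-likelihood test, with a Benjamini-Hochberg threshold of 0.05 over every gene tested. In neuron RNA, 0 of the 10 were called, and 1 had an unadjusted p under 0.05, while 2.75% of the 19622 genes tested were called and 17.2% had an unadjusted p under 0.05. DESeq2 called 1 of the 10. In whole CA RNA, 1 of the 10 was called (lower) and 4 had an unadjusted p under 0.05, beside 4.17% called, 2.79% called lower and 15.7% under 0.05 of 15362 genes. Their median was −0.12 on the log2 scale in neuron RNA, where that of all genes was 0.02, and −0.10 in whole CA RNA, where that of all genes was close to 0. In either material 7 of the 10 fold changes were negative, beside 46.5% of all genes in neuron RNA and 50.8% in whole CA. In bulk RNA, fewer cells of a type and less RNA per cell cannot be told apart.

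**Figure D1:**
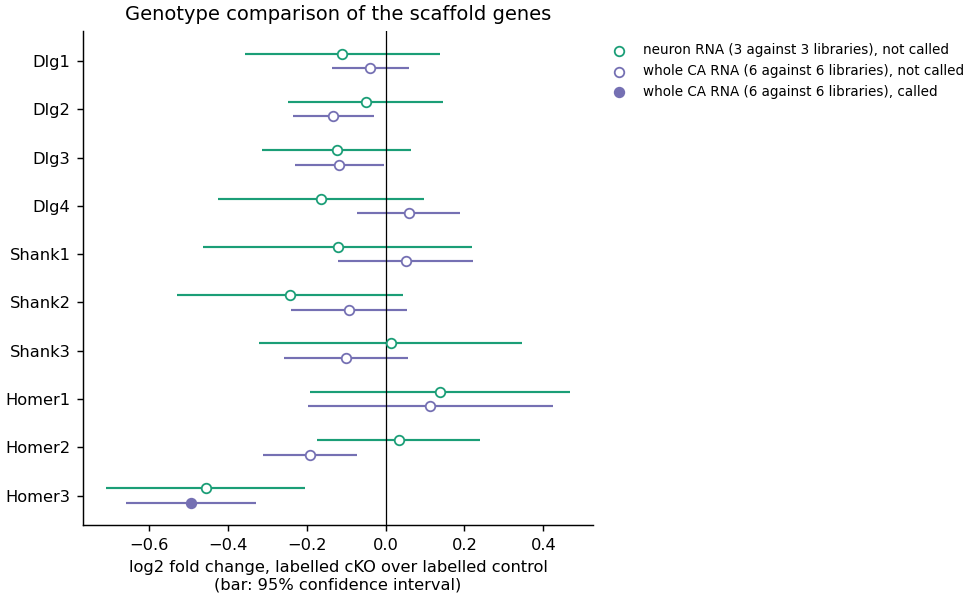
Log2 fold change of each scaffold gene, libraries labelled cKO over libraries labelled control, with its 95% confidence interval, in neuron RNA (3 against 3 libraries) and whole CA RNA (6 against 6). Filled points were called, and only Homer3 in whole CA RNA is filled, at −0.49.

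Among the Homer genes, Homer3 (ENSMUSG00000003573) had the lowest counts. In whole CA RNA it stood at 47.7, 40.4, 37.4, 46.8, 43.4 and 42.4 CPM in libraries labelled control 1 to 6 and at 31.7, 27.1, 28.5, 27.8, 32.7 and 35.3 CPM in libraries labelled cKO 1 to 6. No library labelled cKO reached the lowest control library, a separation shown by 3.08% of all genes in that material. The means were 43.0 ± 3.88 CPM and 30.5 ± 3.23 CPM (SD, n = 6 each). On the log2 scale Homer3 fell by 0.49 (SE 0.08, 95% confidence interval −0.66 to −0.33, edgeR adjusted p 0.000668). Within the sequencing lanes it was −0.52 for replicates 1 to 3 (edgeR adjusted p 0.027) and −0.47 for replicates 4 to 6 (edgeR adjusted p 0.0511), so the second lane alone gave no call. The 4 CA2 and CA3 markers, given above, also separated the whole CA genotypes without overlap, and their part in the Homer3 value was not tested. In neuron RNA Homer3 stood at 41.0, 34.9 and 32.6 CPM under the control label and at 25.9, 24.1 and 29.1 CPM under the cKO label. These groups did not overlap either, as for 23.9% of all genes in this smaller comparison. Neuron RNA gave −0.46 on the log2 scale (SE 0.11, edgeR adjusted p 0.07), and DESeq2 gave an adjusted p of 0.00943. The summed CA1, CA2 and CA3 markers given above were also lower without overlap in these neuron libraries, and their part was not tested. The fold changes in the materials differed by 0.04 (95% confidence interval −0.24 to 0.33, edgeR interaction adjusted p 0.933). Homer3 counts ran from 408 to 865 reads per whole CA library and from 1549 to 2480 per neuron library.

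Homer2 (ENSMUSG00000025813) binds the same partners as Homer3 through its EVH1 domain. In whole CA RNA it stood at 139, 150.1, 167, 135, 157 and 158 CPM in the control libraries and at 139, 136, 129.6, 131, 132 and 127 CPM in those labelled cKO. The groups overlapped at their edges, where the lowest control library (135 CPM) lay below the highest labelled cKO (139 CPM). On the log2 scale Homer2 was at −0.19 (SE 0.06, unadjusted p 0.0032, edgeR adjusted p 0.0667), short of a call, with DESeq2 giving an adjusted p of 0.0261. In neuron RNA Homer2 stood at 87.3, 105 and 94.9 CPM in the control libraries and at 104, 94.0 and 96.0 CPM in those labelled cKO, a log2 fold change of 0.03 (95% confidence interval −0.17 to 0.24). The difference between both effects was 0.23 (95% confidence interval 0.02 to 0.44), with an unadjusted p of 0.0317 and an edgeR adjusted p of 0.582. No scaffold gene was called in this interaction test by edgeR or DESeq2, 1 (Homer2) had an unadjusted p under 0.05, and 0.16% of all 17523 genes were called.

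Homer1 (ENSMUSG00000007617), the family member induced by activity, had fold changes of opposite sign in the 2 sequencing lanes, with no call for the difference. In whole CA replicates 1 to 3, libraries labelled control stood at 179, 187 and 198 CPM and those labelled cKO at 218, 257 and 236 CPM, with no overlap. In replicates 4 to 6, libraries labelled control stood at 150.2, 155 and 169 CPM and those labelled cKO at 129.7, 152 and 131 CPM, lower or overlapping. The log2 fold change was 0.33 in the first lane (edgeR adjusted p 0.0629) and −0.20 in the second (edgeR adjusted p 0.402). Over both it was 0.11 (SE 0.15, 95% confidence interval −0.20 to 0.42, edgeR adjusted p 0.802). A test of the difference between the lanes, added after these values were seen, gave −0.53 (SE 0.12, unadjusted p 0.00037). Its edgeR adjusted p was 0.864, and 0 of 16009 genes were called, with 827 (5.17%) at an unadjusted p under 0.05. In neuron RNA Homer1 stood at 73.2, 102 and 85.1 CPM under the control label and at 77.9, 99.4 and 109 CPM under the cKO label, a log2 fold change of 0.14 (95% confidence interval −0.19 to 0.47). The groups overlapped there.

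**Figure D2:**
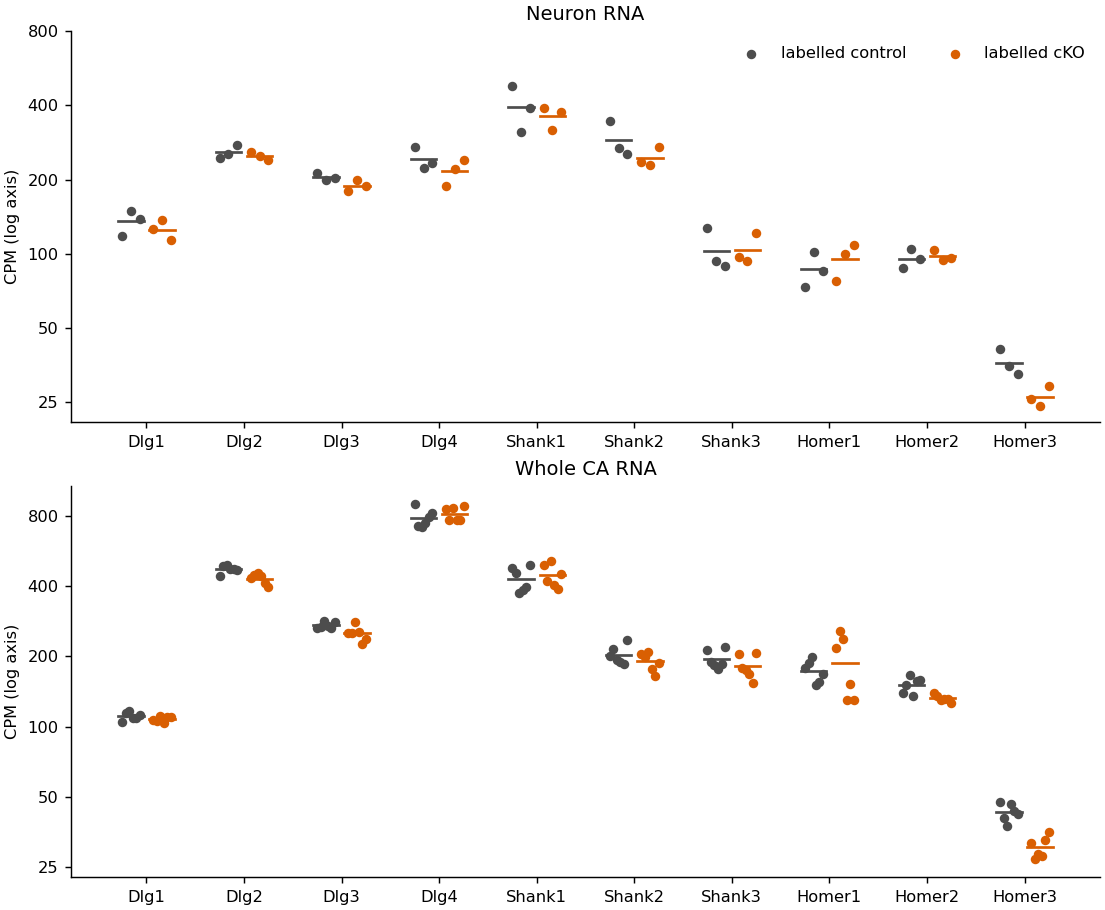
CPM of each scaffold gene in every library (points, log axis) with group means (lines), in neuron RNA above and whole CA RNA below, each material normalized by itself. Homer3 libraries labelled cKO lie below all control libraries in both panels, and for Homer1 the whole CA libraries labelled cKO range from 129.7 to 257 CPM.

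Of the Dlg genes, none was called in either material. Dlg4 (ENSMUSG00000020886), the core scaffold for AMPA and NMDA receptors, stood at 272, 223 and 233 CPM in control neuron libraries and at 189, 221 and 241 CPM in those labelled cKO. The fold change was −0.16 on the log2 scale (95% confidence interval −0.43 to 0.10). In whole CA RNA it stood at 898, 724, 716, 742, 794 and 824 CPM in control libraries and at 855, 766, 859.9, 767, 764 and 881 CPM under the cKO label, a log2 fold change of 0.06 (95% confidence interval −0.07 to 0.19). The groups overlapped in both materials. Dlg2 (ENSMUSG00000052572), which with Dlg4 anchors NMDA receptors and potassium channels, ranged from 440.5 to 491 CPM in control whole CA libraries and from 397 to 456 CPM in those labelled cKO. On the log2 scale this was −0.13 (SE 0.05, unadjusted p 0.014, edgeR adjusted p 0.162). In neuron RNA the value was −0.05 (95% confidence interval −0.25 to 0.15).

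Dlg3 (ENSMUSG00000000881), the X-linked member that carries NMDA receptors early in development, stood at 214, 199.4 and 204 CPM in control neuron libraries. Under the cKO label it stood at 179, 199.3 and 188 CPM. These groups did not overlap, though the closest libraries were 199.4 and 199.3 CPM, and the log2 fold change of −0.12 was not called (SE 0.08, edgeR adjusted p 0.484). The whole CA value was also −0.12 (SE 0.05, unadjusted p 0.0414, edgeR adjusted p 0.289), with libraries at 265 to 283 CPM under the control label and 225 to 282 CPM under the cKO label. Dlg1 (ENSMUSG00000022770), which traffics AMPA and NMDA receptors, stood at 118 to 149.8 CPM and 114 to 137 CPM in neuron RNA. Its log2 fold changes were −0.11 (95% confidence interval −0.36 to 0.14) and −0.04 in whole CA (95% confidence interval −0.14 to 0.06). The groups overlapped in both materials.

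No Shank gene was called either. Shank1 (ENSMUSG00000038738), a spine-enlarging scaffold, spread widely among control neuron libraries, at 479, 312 and 389 CPM, and stood at 389, 319 and 377 CPM under the cKO label. Its log2 fold changes were −0.12 in neuron RNA (95% confidence interval −0.46 to 0.22) and 0.05 in whole CA (−0.12 to 0.22). Shank2 (ENSMUSG00000037541) stood at 345, 269 and 255 CPM in control neuron libraries and at 235, 229 and 271 CPM under the cKO label. Its log2 fold change there was −0.24 (95% confidence interval −0.53 to 0.04, edgeR adjusted p 0.366), and in whole CA it was −0.09 (−0.24 to 0.05). In both Shank genes, control library 1 was the highest neuron library and the groups overlapped. Shank3 (ENSMUSG00000022623), the member whose loss causes Phelan-McDermid syndrome, had log2 fold changes of 0.01 in neuron RNA (95% confidence interval −0.32 to 0.35) and −0.10 in whole CA (−0.26 to 0.06). It ranged from 89.3 to 127 CPM in control neuron libraries and from 93.2 to 122 CPM in those labelled cKO. In whole CA it ranged from 176 to 219.6 CPM and from 155 to 207 CPM in the same order.

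Genes that work with the scaffolds were read from lists. Of the Dlgap adaptors between Dlg and Shank, 0 of 4 were called in either material, beside 2.75% of all genes for neurons and 4.17% for whole CA. In neuron RNA Dlgap1, Dlgap2, Dlgap3 and Dlgap4 had log2 fold changes of −0.14, −0.01, −0.23 and −0.10, with edgeR adjusted p of 0.369 or more. Whole CA values were −0.14, −0.03, 0.01 and 0.11 in the same order, with edgeR adjusted p of 0.276 or more. Of 30 other organisers of the postsynaptic density, 0 were called in neuron RNA by edgeR, beside 2.75% of all genes. An unadjusted p under 0.05 was found there for 2 of the 30, beside 17.2% of all genes. EdgeR called 3 of the 30 in whole CA, beside 4.17% of all genes. Those 3 were Kalrn, a regulator of dendritic spines (−0.29, edgeR adjusted p 0.00649), Frmpd4, which links PSD-95 to metabotropic receptors and actin (−0.23, edgeR adjusted p 0.00611), and Pick1, which binds AMPA receptors (0.27, edgeR adjusted p 0.0346). None of 4 measured inhibitory scaffolds was called in either material by edgeR, and 0 had an unadjusted p under 0.05. Of all genes, 17.2% had such a p for neurons and 15.7% for whole CA.

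Of 23 receptors and adhesion proteins held by the scaffolds, 2 fell in neuron RNA, where 2.75% of all genes were called, and 6 fell and 1 rose in whole CA RNA, where 4.17% were called and 2.79% were called lower. Lgi1, the secreted ligand that ties ADAM22 and PSD-95 across the synapse, fell by 1.41 on the log2 scale in neuron RNA (SE 0.09, edgeR adjusted p 4.83e-05) and by 1.41 in whole CA (SE 0.06, edgeR adjusted p 1.4e-11). Lrrtm1, a postsynaptic adhesion protein, fell in both (−0.48, edgeR adjusted p 0.0229, and −0.38, edgeR adjusted p 0.0156). Whole CA RNA also had lower levels of the related Lrrtm2 (−0.60), the AMPA receptor subunit Gria2 (−0.38), its auxiliary subunit Cacng8 (−0.33) and the NMDA receptor subunit Grin2a (−0.25), with edgeR adjusted p of 0.00272 to 0.0324. Itpr1, an IP3 receptor that Homer binds, rose by 0.19 on the log2 scale (edgeR adjusted p 0.042). The median of the list was −0.09 on the log2 scale in neurons, where that of all genes was 0.02, and −0.12 in whole CA, where that of all genes was close to 0. Whether the share called differs from that of the scaffold genes was not tested. The list was chosen with earlier results of these data known, so its share called cannot show an excess over all genes.

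Activity-induced genes, a list also chosen with earlier results of these data known, were read beside Homer1. In neuron RNA 12 of 13 had a negative fold change, beside 46.5% of all genes, with a median of −0.34 on the log2 scale. Called were 2, beside 2.75% of all genes: Nptx2, a secreted pentraxin (−1.11, edgeR adjusted p 0.00134), and the immediate early gene Ier2 (−0.97, edgeR adjusted p 0.0193). Of the same genes in whole CA RNA, 0 of 13 were called by edgeR, 1 had an unadjusted p under 0.05, and the median was 0.01. In the same neuron libraries the 4 dentate granule cell markers had a median of −0.48 (4 of 4 negative, 2 called) and the 5 pyramidal markers one of −0.24 (5 of 5 negative, 2 called), and their part was not tested. The Homer1 fold change in neuron RNA was positive, as given above, and was not called.

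Neuron RNA was poorer in most scaffold transcripts than whole CA RNA, in the control libraries and with all 18 RNA libraries normalized together. Of the 10 genes, 9 were called, 8 lower and 1 higher in neuron RNA. The count has to be read against 83.0% of all 17523 genes called, 39.8% lower and 43.2% higher. The median of the 10 was −0.71 on the log2 scale, and that of all genes was 0.07. The 5 pyramidal neuron markers had a median of −1.11, with 4 called lower and 0 higher. The 23 receptors and adhesion proteins had a median of 0.10, with 7 called lower and 11 higher. Dlg4 was the furthest, at 203, 215 and 253 CPM (lowest, median and highest of 3) in neuron RNA and 744 to 926 CPM in whole CA RNA, or −1.86 on the log2 scale (SE 0.10). Homer1 (−1.17), Shank3 (−1.09), Dlg2 (−1.04) and Homer2 (−0.83) followed, with edgeR adjusted p from 1.09e-12 to 3.5e-06. Dlg3 (−0.58, edgeR adjusted p 4.97e-08), Homer3 (−0.42, edgeR adjusted p 0.000404) and Shank1 (−0.30, edgeR adjusted p 0.0257) were also lower. Shank2 alone was higher in neuron RNA, at 235 to 320.5 CPM against 194 to 244 CPM, or 0.34 on the log2 scale (SE 0.10, edgeR adjusted p 0.00258). Dlg1 was not called (0.11, 95% confidence interval −0.03 to 0.26, edgeR adjusted p 0.14). Scaling by library size alone moved the median of all genes to 0.25. Under that scaling Dlg1 was called higher (0.29, edgeR adjusted p 0.000595) and Shank1 was no longer called (−0.12, edgeR adjusted p 0.328). Leaving out 1 library also changed some calls. Without neuron control 1, Shank2 was at 0.19 (edgeR adjusted p 0.0699) and Dlg1 was called at 0.20 (edgeR adjusted p 0.013). Shank1 lost its call without neuron control 2 (−0.15), without neuron control 3 (−0.29) and without whole CA control 6 (−0.25), with edgeR adjusted p of 0.0573 to 0.267. The mitochondrial share of counts was 3.41 to 7.05% in whole CA libraries and 0.00814 to 0.0144% in neuron libraries. The cell makeup, the RNA preparation and the sequencing run cannot be told apart in this comparison.

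**Figure D3:**
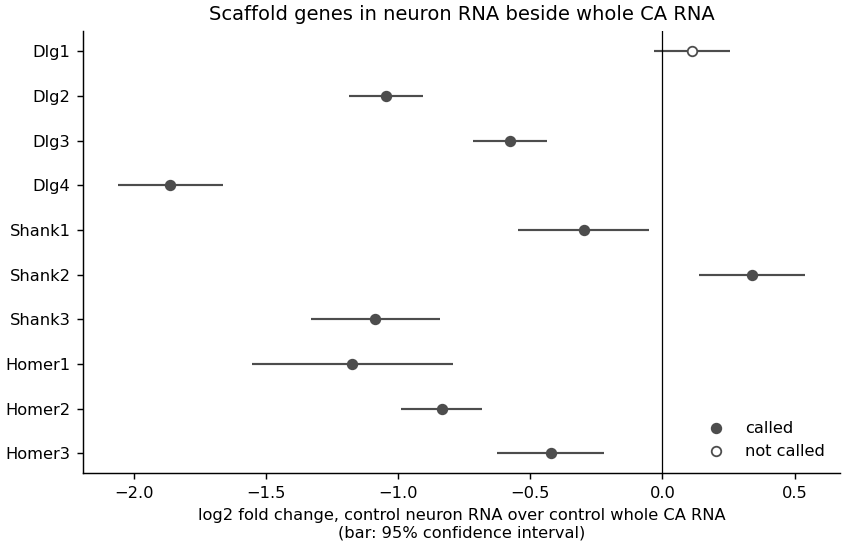
Log2 fold change of each scaffold gene in control neuron RNA over control whole CA RNA, with its 95% confidence interval, from the fit of all 18 RNA libraries. Values run from −1.86 for Dlg4 to 0.34 for Shank2, and the Dlg1 interval alone crosses 0.

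H3K4me3, the mark of active promoters that Setd1b helps to lay down, was shorter at some scaffold starts in libraries labelled cKO. The measure was the number of bases covered by merged peaks within 3 kb on either side of a start site, a length of peak and not a height of signal. Of 18 scaffold starts, 16 had peaks in enough libraries to be tested by limma, and 6 were called, all 6 shorter. In windows of 1 kb either side, 5 of these 6 calls were lost and the fourth Dlg1 start remained (−0.26, limma adjusted p 0.0171). There the second Homer1 start was at −1.29 (limma adjusted p 0.492), the third Dlg4 start at −0.28 (limma adjusted p 0.194), the third Dlg1 start at −0.018, the first listed Dlg2 start at 0 and the first Homer2 start at 0.054. At that Dlg2 start every library had at least 1687 bp covered before and 1625 bp after the start, beyond the reach of these windows. Windows of 1 kb cannot show length lost further from a start, so a lost call there does not mean unchanged length. Among all 18576 windows tested 26.2% were called and 25.1% were called shorter. The median of the 16 was −0.31 on the log2 scale, and that of all windows was −0.09. Windows of 1 gene overlap at Homer1, Dlg3, Dlg4 and the first 2 starts of Dlg1, so those windows share peaks and are not independent of one another. At 6 starts the genotypes did not overlap, beside 30.4% of all windows. H3K4me3 libraries held 24377163 to 27829513 tags. Each genotype had a single input library, so genotype cannot be told apart from the input used.

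**Figure D4:**
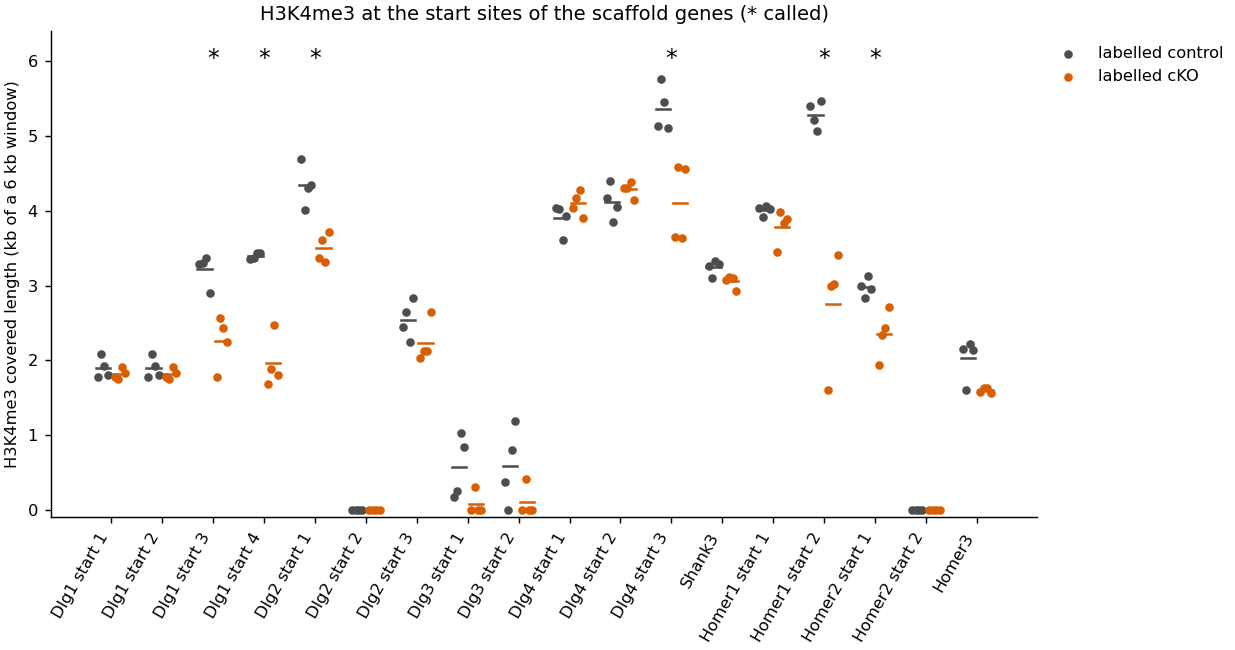
H3K4me3 covered length at each RefSeq start site of the scaffold genes, in order along the gene, for every library (points) with group means (lines). The 6 starts marked with an asterisk were called shorter, and at each of them all 4 libraries labelled cKO lie below all 4 control libraries.

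The second start of Homer1 showed the widest loss of length among the called scaffold starts. In control libraries 5399, 5208, 5065 and 5466 bp of the window were covered, and in libraries labelled cKO 1599, 2999, 3015 and 3405 bp. The log2 fold change was −0.97 (SE 0.21, limma adjusted p 0.0133). In each of the 4 control libraries 1 merged peak of 6924, 7017, 7255 and 7092 bp spanned both starts. In each library labelled cKO the stretch of 4277 bp between the starts touched 3 separate peaks, the longest of 2152, 4104, 3732 and 2855 bp. These peaks still covered 2641, 3868, 4176 and 4141 bp of the stretch in libraries labelled cKO 1 to 4. In each control library 4278 bp were covered, both start bases included, so most libraries labelled cKO had only small gaps there. Past the second start, 2065 to 2466 bp were covered in control libraries and 66 to 489 bp in those labelled cKO. At the first start, the one with the CRE cores, 3917 to 4070 bp were covered under the control label and 3448 to 3984 bp under the cKO label, a log2 fold change of −0.08 (95% confidence interval −0.20 to 0.03, limma adjusted p 0.267). Homer1 RNA was not called in neurons, as given above.

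H3K9ac, an acetyl mark of active promoters, was shorter at the second Homer1 start too. Control libraries had 3503, 4514, 4597 and 4089 bp covered and libraries labelled cKO 1212, 1673 and 1863 bp, or −1.36 on the log2 scale (SE 0.16, limma adjusted p 0.0261). This was 1 call among 16 scaffold windows tested, beside 1.26% of 19175 windows. The call was lost in 6 of the 7 fits that left out 1 library (limma adjusted p 0.0726 to 0.0982), all but the one without control 1. At the first start H3K9ac had a log2 fold change of −0.22 (limma adjusted p 0.206). H3K27ac, a mark of active promoters and enhancers, covered 470 to 1933 bp of the second window in control libraries and 760 to 960 bp in those labelled cKO, within the control range. H3K4me1, which flanks promoters and marks enhancers, covered 1252 to 2241 bp of the stretch between the starts under the control label and 2822 to 3274 bp under the cKO label. Over the whole second window it covered 4252 to 5241 bp and 4949 to 6001 bp in the same order, where 3 of the 4 libraries labelled cKO were covered from end to end (log2 fold change 0.31, unadjusted p 0.019, limma adjusted p 0.16). In the libraries labelled cKO, Homer1 had less H3K4me3 length past its second start. The stretch between the starts was read for Homer1 alone, with no test and no share over other genes. The longer H3K4me1 there is therefore a description, and H3K4me1 had no call over the second window. Past the second start H3K4me1 covered 3001 bp in each control library and 2128 to 3001 bp in those labelled cKO.

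**Figure D5:**
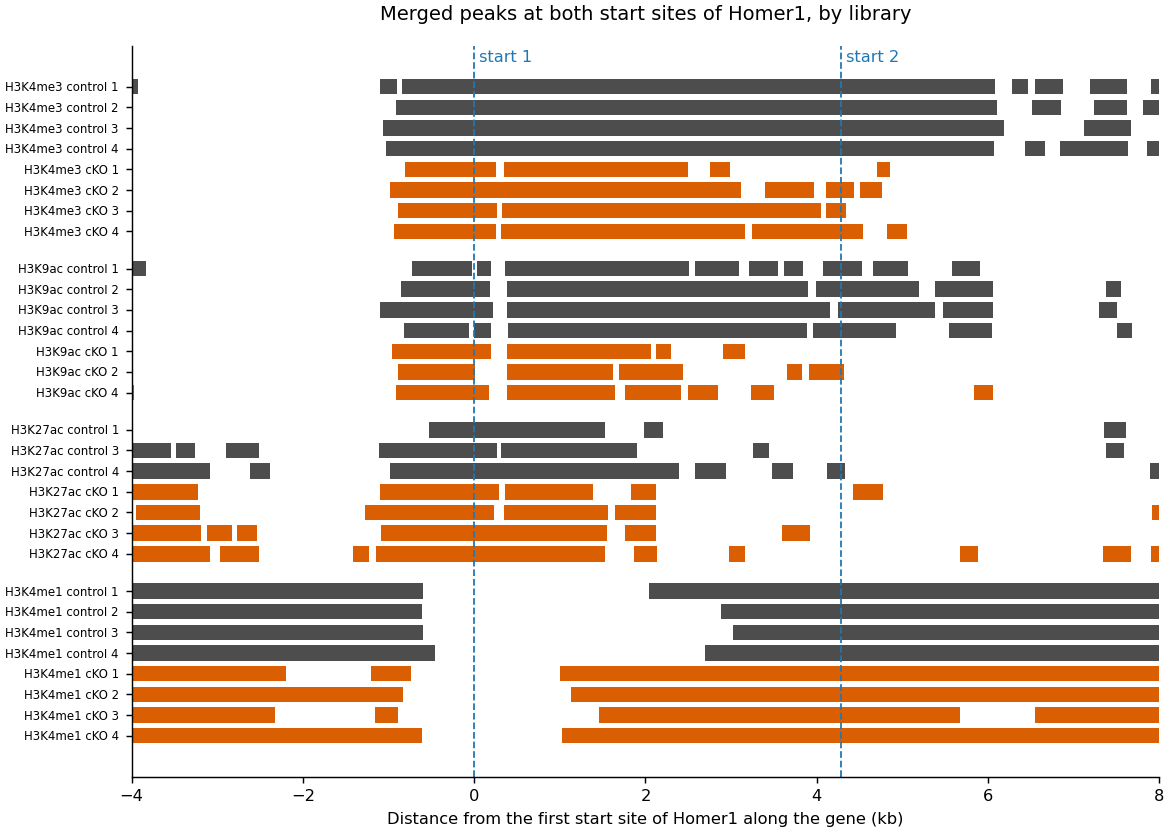
Merged peaks of each mark around both start sites of Homer1 (dashed lines), by library, against the distance from the first start in kb. In the 4 control H3K4me3 libraries 1 peak joins the starts. In the 4 labelled cKO the stretch touches 3 peaks, which still cover 2641 to 4176 bp of it, with little covered past the second start.

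Both internal starts of Dlg1 were called, and its first 2 starts were not. At the fourth start 3350, 3372, 3431 and 3436 bp were covered by H3K4me3 in control libraries and 1687, 1880, 2476 and 1809 bp in those labelled cKO, or −0.78 on the log2 scale (SE 0.11, limma adjusted p 0.00181). At the third, 32105 bp into the gene, the values were 3293, 3301, 3368 and 2903 bp and 1783, 2567, 2432 and 2242 bp (−0.50, SE 0.11, limma adjusted p 0.0132). No library labelled cKO reached the control range at either. The first 2 starts, 492 bp apart, had 1774 to 2080 bp and 1749 to 1917 bp covered, a log2 fold change of −0.06 (95% confidence interval −0.19 to 0.08). At the fourth start H3K4me1 covered 852, 0, 875 and 261 bp in control libraries and 3147, 3120, 1686 and 2325 bp in those labelled cKO. That difference of 2.60 on the log2 scale of covered length was not called (SE 0.73, unadjusted p 0.00824, limma adjusted p 0.108). H3K4me1 had 0 calls among 18 scaffold windows by limma, with 3.59% of 23328 windows called, and 5 scaffold windows at an unadjusted p under 0.05.

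Starts of Dlg4, Dlg2 and Homer2 were called as well. The third Dlg4 start, 6779 bp into the gene, had 5133, 5765, 5458 and 5110 bp covered in control libraries and 3643, 4580, 3638 and 4553 bp under the cKO label (−0.39, SE 0.09, limma adjusted p 0.0198). The first and second Dlg4 starts were not called, at 0.07 (95% confidence interval −0.04 to 0.19) and 0.06 (−0.05 to 0.16) on the log2 scale, and the first window also reaches the neighbouring gene Acadvl. The first listed Dlg2 start, 614598 bp into the gene, had 4017 to 4698 bp and 3312 to 3711 bp covered (−0.30, SE 0.06, limma adjusted p 0.00812). The first Homer2 start had 2997, 2828, 3130 and 2960 bp and 1945, 2340, 2439 and 2709 bp covered (−0.33, SE 0.09, limma adjusted p 0.034), in a window that also reaches the lncRNA gene Gm32579. The Homer2 call was lost in 6 of the 8 fits that left out 1 library (limma adjusted p 0.0556 to 0.0854), all but those without cKO 1 or cKO 4. The Dlg4 call was lost without control 2 or control 3 (limma adjusted p 0.0543 and 0.0519). The length was also read on either side of the start, at starts already called for their total length, so the ranges are a description. Downstream of the start, the covered length ran from 2166 to 3001 bp in control libraries and from 1625 to 1846 bp under the cKO label at Dlg2, from 2230 to 2491 bp and from 1473 to 1924 bp at Homer2, and from 2928 to 3001 bp and from 1522 to 2291 bp at the fourth Dlg1 start. Upstream it ran from 1697 to 1856 bp and from 1687 to 1872 bp at Dlg2, and from 551 to 639 bp and from 472 to 785 bp at Homer2. At the third Dlg1 start upstream ranges were 470 to 508 bp and 299 to 543 bp. At the fourth Dlg1 start they were 349 to 508 bp and 146 to 185 bp, without overlap. They did not overlap at the third Dlg4 start either (2533 to 2764 bp and 2070 to 2398 bp). At the second Homer1 start each control library had 3000 bp upstream, and libraries labelled cKO had 1453 to 2949 bp. Of the 6 called starts 4 held 7 CpG or fewer, and 7 is the median of all promoters. The called Homer2 start held 49 and the third Dlg4 start 16. Among starts not called, the first Dlg4 start held 5 and the third listed Dlg2 start 2.

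At the Homer3 start, the gene lower in RNA, H3K4me3 covered 2148, 1600, 2223 and 2138 bp in control libraries and 1581, 1626, 1626 and 1567 bp in those labelled cKO. Of the control libraries 3 lay above every library labelled cKO, and the log2 fold change of −0.31 was not called (SE 0.10, limma adjusted p 0.0507). The shortest control value, 1600 bp in control 2, lay within the range of the libraries labelled cKO, and without that library the start was called (−0.42, limma adjusted p 0.00126). H3K27ac at Homer3 covered 3920 to 4061 bp and 3314 to 3870 bp, with no overlap and no call (−0.15, limma adjusted p 0.429). H3K9ac covered 1573 to 2448 bp and 1696 to 2805 bp. Shank3, with 40 CpG at its listed start 6595 bp into the gene, had 3097 to 3335 bp and 2930 to 3120 bp of H3K4me3 (−0.08, 95% confidence interval −0.17 to 0.01). The listed Dlg3 starts, 7084 and 9860 bp into the gene, had short or no H3K4me3 peaks. These covered 0 to 1193 bp under the control label and 0 to 412 bp under the cKO label. For Dlg2, Dlg3 and Shank3 no start at the 5′ end of the gene was read. The first listed Dlg3 start was not called (limma adjusted p 0.0543), but was called without cKO 2 (limma adjusted p 0.0136) or without control 1 (limma adjusted p 0.0428). The second was at −1.69 (limma adjusted p 0.215) and was called without control 2 (limma adjusted p 0.0466). The second listed Dlg2 start and the second Homer2 start had no H3K4me3 peak in any library.

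H3K27ac had 0 calls among 17 scaffold windows by limma, beside 0.462% of 18611 windows, and 2 scaffold windows had an unadjusted p under 0.05. These were the first Homer2 start (−0.38, limma adjusted p 0.225) and Shank3 (−0.20, limma adjusted p 0.317). At 6 of the 17 the genotypes did not overlap, and at 7 of 16 for H3K9ac, beside 14.6% and 18.6% of all windows in either direction. In each of these the libraries labelled cKO were the shorter ones. The 3 Dlg4 windows, which overlap in part, are among them for both marks except the first Dlg4 window in H3K27ac. All windows also leaned to shorter lengths, with medians of −0.08 for H3K27ac and −0.06 for H3K9ac on the log2 scale. The scaffold medians were −0.12 and −0.21 in the same order. For these marks too, genotype cannot be told apart from the single input library of each genotype.

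The scaffold genes did not vary as 1 block across the 12 whole CA libraries. After the mean of each genotype was taken out, Pearson's r of log2(CPM + 1) was 0.75 between Dlg4 and Shank3, 0.73 between Dlg4 and Shank1 and 0.84 between Shank1 and Shank2, but −0.54 between Dlg4 and Dlg2 and −0.51 between Homer1 and Homer3. The genes most like Dlg4 among 9756 with a mean of at least 10 CPM were Scrt1 (0.96), Fcho1 (0.96) and Pik3r2 (0.95). Those most like Shank1 were Carm1, Rab3b and R3hdm2 (each 0.95), and those most like Homer1 were Arl15 (0.94), Strn (0.94) and Acbd3 (0.93). These are descriptions over 12 libraries that share 2 lanes and differ in depth.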

How the data were processed

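The authors deposited RNA read counts per Ensembl gene and ChIP-seq peak lists, the latter called against 1 input library per genotype with MACS 2.1.0.20140616 (2.1.1.20160309 for H3K4me3) at a q-value cutoff of 0.1, per the file headers. Peak scores in the deposited lists are −log10 p and −log10 q values per the file headers. Here −log10 q was used only for an alternative, and the measure was the length covered by merged peaks. The build is GRCm38 (mm10), per the submitters' processing notes. The aligner and the counting tool are not given in the sources used here. Counts were tested per material with edgeR 4.0.16 (TMM, filterByExpr, quasi-likelihood test), with DESeq2 1.42.0 as an alternative, and log2(covered bp + 100) in 3 kb either side of 32851 RefSeq start sites with limma 3.58.1, where at least 3 libraries had a peak. P-values were adjusted by Benjamini-Hochberg over all genes or windows. CPM were computed here with TMM factors. Samples were grouped by the labels. The edgeR fit was tested on simulated data. Genes named are the 10 members, the called genes of the fixed lists and the 3 genes most like the member of each family with the highest control CPM in whole CA (Dlg4, Shank1 and Homer1). The lane interaction was added after values were seen. The stretch between the Homer1 starts and the lengths on either side of a start were not among the planned comparisons and were not tested. Members and lists were chosen with earlier results of these data known. Replicate numbers were checked for pairing with a mixed outcome, so libraries were not treated as pairs. Deviations of same-numbered RNA libraries correlated at −0.11, 0.43 and −0.25 in neuron RNA and at −0.08 to 0.29 in whole CA.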

Additional observations from a re-analysis of the deposited data

Results flagged for a closer look

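For each scaffold gene or start site, every group of 4 to 10 libraries whose values were not all equal was searched for a highest or lowest library far from the rest by Dixon's criterion, over RNA and all 4 marks. Of 121 groups tested, 15 had such a library, none of them among the 20 RNA groups. For normally distributed values the criterion flags about 1 in 20. Covered lengths end at 0 and at 6001 bp, where libraries tie and a single differing library is flagged, so that rate does not hold for them. Windows of 1 gene can overlap, so these groups are not independent. In H3K4me3, control 4 had 2903 bp covered at the third Dlg1 start, where the other control libraries had 3293 to 3368 bp. Control 2 had 1600 bp at Homer3, where the others had 2138 to 2223 bp. Of H3K4me3 libraries labelled cKO, number 4 had 2650 bp at the third listed Dlg2 start, where the others had 2033 to 2131 bp. Number 2 had 312 bp at the first listed Dlg3 start and 412 bp at the second, where the others had 0.

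In H3K4me1, control 1 had 4819 bp at the second Dlg4 start, where the others had 1767 to 2060 bp, and 6001 bp at the third, where the others had 4895 to 5074 bp. Number 1 labelled cKO had 4691 bp at the first and at the second Dlg4 start, where the others had 3324 to 3524 bp and 3369 to 3524 bp. It had 2908 bp at Shank3, where the others had 3242 to 3295 bp. Number 3 had 4949 bp at the second Homer1 start, where the other 3 had 6001 bp, and number 4 had 4925 bp at Homer3, where the others had 3989 to 4073 bp. In H3K9ac, control 1 had 1435 bp at the third Dlg1 start, where the others had 2200 to 2328 bp. Control 3 had 4635 bp at the first Dlg4 start, where the others had 4720 to 4727 bp, and control 4 had 174 bp at the second Homer2 start, where the others had 0.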

How the results depend on the processing

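In neuron RNA 1 scaffold gene, Homer3, was called instead of 0 without a filter on low counts, with DESeq2 and at an adjusted p under 0.1. In whole CA RNA 2 were called instead of 1 with DESeq2 and at an adjusted p under 0.1 (Homer2 joined Homer3), and 0 with replicates 4 to 6 only. Leaving out 1 library gave 0 in every neuron RNA fit, 1 to 2 in whole CA (2 without control 1 or control 4, edgeR adjusted p of Homer2 0.0429 and 0.0432), 8 to 9 between the materials, 4 to 6 H3K4me3 starts, 0 to 1 for H3K4me1 (without control 1, the second Dlg4 start, 0.92), 0 for H3K27ac and 0 to 1 for H3K9ac. With windows of 1 kb either side, 1 H3K4me3 start was called instead of 6, that of Dlg1, and the first Homer2 start reversed to 0.054 (limma adjusted p 0.836). Such windows cannot show length lost further than 1 kb from a start. In those shorter windows H3K4me1 had 1 call (the fourth Dlg1 start) and H3K9ac 0. An offset of 1000 bp gave 1 H3K4me1 call, again the fourth Dlg1 start (1.28, limma adjusted p 0.0248). Beyond that limit of the 1 kb windows, the cause was not tested. Over all genes, calls in neuron RNA numbered 539, or 833 with DESeq2, 930 at an adjusted p under 0.1 and 207 to 482 without 1 library. In whole CA they numbered 640, or 207 and 224 within single lanes, where fewer samples enter.

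With the replicate number as a block, scaffold genes called numbered 0 in neuron RNA, 1 in whole CA RNA and 0 for the difference between the materials, as without it. Scaffold starts called were 5 instead of 6 for H3K4me3 (the first Homer2 start was lost, limma adjusted p 0.0609), 0 for H3K4me1 and H3K27ac as without it, and 0 instead of 1 for H3K9ac. All genes called went from 539 to 327 in neuron RNA and from 640 to 839 in whole CA. Libraries with the same number did not deviate together in every pair, so the numbers were not taken as pairs.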
